A study of Mus musculus with 15 samples.

Results

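Gene deserts are long stretches of chromosome that hold no protein-coding gene. The desert sites described here were autosomal CpG sites more than 100 kb from every protein-coding gene of the RefSeq annotation of GRCm38.p6, in 1 kb windows with fewer than 10 measured CpG sites. They numbered 40307 of 455836 CpG sites (8.84%) and lay in 17037 windows. Methylation values played no part in choosing them. Of the 44039 autosomal CpG sites beyond 100 kb, 3732 lay in denser windows and were not counted as desert sites. The nearest desert site was 100003 bases from a gene and the nearest site left out by distance was 99995 bases away.

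The data came from reduced representation bisulfite sequencing (RRBS), which cuts DNA with a restriction enzyme and reads CpG-rich fragments after bisulfite has converted unmethylated cytosines. The tissue was the dentate gyrus, micro-dissected from the hippocampus. All 15 mice were C57BL/6JRj females, 7.5 months old, and the labels name no genetic change in any group. The 5 standard mice spent 6 months in standard cages. The 5 enriched mice spent 6 months in an enriched environment. The 5 withdrawal mice had 3 months of enrichment and then 3 months of standard housing. The dissected tissue mixes neurons of several kinds with glia, so a methylation percentage is an average over cell types.

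Cytosine methylation at CpG pairs is laid down and copied by DNA methyltransferases and covers most of the mammalian genome outside CpG islands and active regulatory elements. Far from genes, locally low methylation is a known feature of distal enhancers and of the start sites of long non-coding RNAs (lncRNAs), while repeats and quiet DNA are usually highly methylated. Neurons also carry methylation at cytosines outside CpG pairs. RRBS fragments begin at the cut site CCGG, which is scarcer far from genes, so deserts are sampled thinly.

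Desert sites were thinly spread: 6664 were the single measured site of their window, 9321 lay in windows with 2 and 7219 in windows with 3. The median distance to a protein-coding gene was 244 kb, with 8465 sites beyond 500 kb and the farthest at 2243 kb. The chromosomes with the highest counts were 3, 1 and 4, with 3380, 3215 and 2680 sites. Those with the lowest were 11, 17 and 19, with 1526, 1384 and 664. Genes of other kinds, mainly lncRNA genes, overlapped 6992 desert sites (17.3%). Every site had a value in at least 3 mice of each group, and 13297 (33.0%) had a value in all 15 mice. This share was 26.0% for sites inside protein-coding genes and 31.0% for sites between genes at 1 to 100 kb. Both sets were taken under the same upper limit on measured CpG sites per window. The number of measured sites below that limit was not matched. The in-gene set ran from gene start to gene end, so its level is not that of gene bodies alone. Sites outside genes but within 1 kb of one were in neither set. Levels below are means over sites complete in all 15 mice unless another set is named. The read depth behind a percentage is unknown.

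Desert sites at the start of lncRNA genes can be shown with their sequence. The RefSeq promoter window, from 250 bases before to 50 after the start, held a complete desert site at 33 lncRNA genes. Their mean methylation was under 20% at 15 genes, over 80% at 10 and in between at 8, and 8 of the 33 windows had 3 or more measured sites. The sequences of 3 windows with low and 2 with high methylation are printed to show the letters behind weakly and highly methylated starts. They were chosen after their values were seen and are given 5′ to 3′ along the gene, from RefSeq on GRCm38.p6, with the measured CpG pairs in capitals.

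Tunar: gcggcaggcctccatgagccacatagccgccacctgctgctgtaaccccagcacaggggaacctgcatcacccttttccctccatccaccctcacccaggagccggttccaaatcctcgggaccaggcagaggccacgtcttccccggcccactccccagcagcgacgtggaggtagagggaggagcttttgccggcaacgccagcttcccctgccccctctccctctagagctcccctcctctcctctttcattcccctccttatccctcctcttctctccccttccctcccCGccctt
1700011C11Rik: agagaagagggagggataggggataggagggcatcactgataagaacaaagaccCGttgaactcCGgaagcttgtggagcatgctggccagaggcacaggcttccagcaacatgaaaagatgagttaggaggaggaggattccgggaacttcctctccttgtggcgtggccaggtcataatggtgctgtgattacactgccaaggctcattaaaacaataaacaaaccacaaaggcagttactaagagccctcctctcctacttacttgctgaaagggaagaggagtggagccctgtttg
5430440P10Rik: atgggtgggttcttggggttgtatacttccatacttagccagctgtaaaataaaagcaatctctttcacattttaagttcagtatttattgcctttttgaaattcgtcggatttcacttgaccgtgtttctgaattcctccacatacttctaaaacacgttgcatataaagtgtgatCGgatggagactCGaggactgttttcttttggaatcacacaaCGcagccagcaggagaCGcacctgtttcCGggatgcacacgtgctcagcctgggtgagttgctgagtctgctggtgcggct
Gm33806: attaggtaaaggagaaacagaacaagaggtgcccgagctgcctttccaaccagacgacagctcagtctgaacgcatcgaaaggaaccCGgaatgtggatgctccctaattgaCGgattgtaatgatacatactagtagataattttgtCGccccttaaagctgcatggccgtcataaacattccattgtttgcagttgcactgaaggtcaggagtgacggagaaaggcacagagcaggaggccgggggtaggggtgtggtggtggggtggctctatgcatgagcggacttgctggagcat
Gm32736: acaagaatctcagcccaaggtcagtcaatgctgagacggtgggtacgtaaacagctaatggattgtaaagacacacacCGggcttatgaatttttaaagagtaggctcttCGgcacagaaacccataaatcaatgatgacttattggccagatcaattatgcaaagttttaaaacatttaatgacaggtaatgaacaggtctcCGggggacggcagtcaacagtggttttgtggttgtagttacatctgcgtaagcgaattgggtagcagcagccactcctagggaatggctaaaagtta

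Tunar, a lncRNA gene known from neural and stem cells, has its window at chr12:105336344-105336643 on the plus strand, 114 kb from the nearest protein-coding gene. Its 1 measured site was at 0 in every standard mouse and averaged 0.708 ± 1.58% in enriched mice and 0.682 ± 1.52% in withdrawal mice (SD, n = 5 each). The window of 1700011C11Rik (chr7:71960925-71961224, plus strand) averaged 6.22 ± 3.38%, 7.37 ± 6.22% and 4.11 ± 4.06% in standard, enriched and withdrawal mice. The start of 5430440P10Rik (chr14:105427309-105427608, plus strand) averaged 2.20 ± 2.83%, 15.9 ± 27.2% and 12.5 ± 14.97%. Its mice ran from 0 to 64.4%, so the wide spread of the enriched and withdrawal groups exceeded the distance between the group means.

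At the high end, Gm33806 (chr2:169240143-169240442, plus strand) averaged 79.5 ± 17.99%, 96.1 ± 3.92% and 94.6 ± 4.51%. Gm32736 (chr5:106094693-106094992, plus strand) averaged 96.5 ± 1.86%, 96.6 ± 2.10% and 97.9 ± 3.67%, and every mouse was at or above 91.4%. The 15 low windows held 3 to 11 CG pairs, with a median of 7, and the 10 high windows held 2 to 16, with a median of 8. The median over the promoter windows of all 27025 annotated genes with a sequence was 7. The letters CCGG, which read the same on both strands, occurred in 33 of the 33 windows (100%) and in 52.3% of all promoter windows. Low and high windows thus overlapped in their number of CG pairs. The windows were taken for holding a measured site and RRBS fragments begin at CCGG, so the high share with the cut site is set largely by the method.

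Desert sites were highly methylated in every mouse. The median desert site was at 90.9%. Of the complete sites 66.0% had a mean over 80%, 22.2% lay between 20 and 80% and 11.8% were under 20%. The top 5 points of the scale held 33.5% of desert sites and the bottom 5 points 2.69%. Sparse sites inside protein-coding genes, gene starts included, were split more evenly, with 39.9% over 80% and 36.4% under 20%. Sites between genes at 1 to 100 kb fell in between, with 53.9% and 21.2%.

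**Figure D1:**
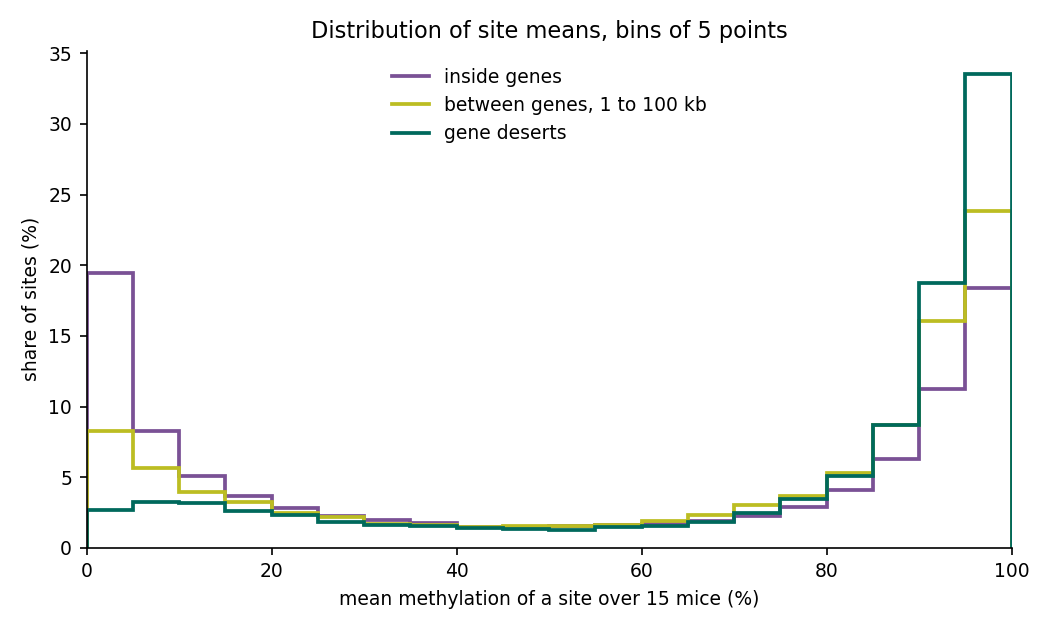
Share of complete CpG sites (y axis, percent of the set's sites) in bins of 5 percentage points of the site's mean methylation over 15 mice (x axis, percent), for desert sites, sites between genes at 1 to 100 kb and sites inside protein-coding genes, all in sparse windows. The desert line peaks at 33.5% in the top bin and starts at 2.69% in the bottom bin, where the in-gene line is higher.

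The mean over desert sites was 74.7 ± 0.843% (SD, n = 15 mice), against 64.9 ± 0.912% between genes and 51.1 ± 0.901% inside genes. Within each mouse the desert mean exceeded the in-gene mean by 23.5 points, from 23.3 to 23.8, in 15 of 15 mice (two-sided exact sign-flip permutation test, p = 6.1e-05, the smallest this design gives). The excess over sites at 1 to 100 kb was 9.75 points, from 9.55 to 10.1, again in 15 of 15 mice (exact sign-flip permutation test, p = 6.1e-05). The same sites were averaged in every mouse. The sign-flip p-values here and below thus measure agreement among mice, not variation among sites. The sets shared the upper limit on measured sites per window but were not matched for the number below it. In windows with fewer than 5 measured sites the 2 differences were 17.4 and 8.43 points.

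**Figure D2:**
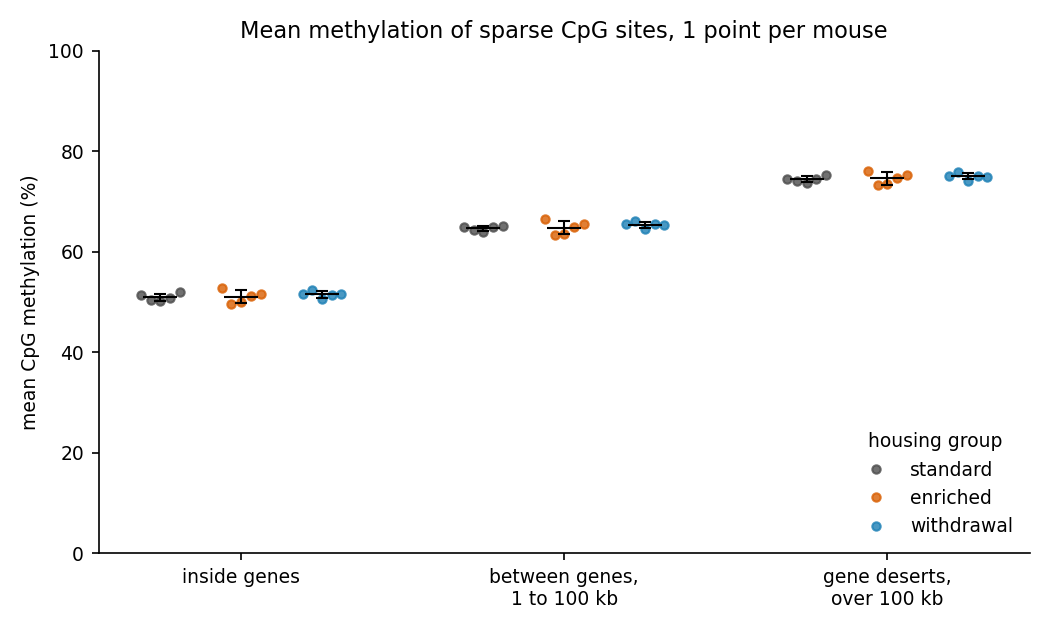
Mean CpG methylation per mouse (y axis, percent) in 3 sets of sparse sites (x axis), with 1 point per mouse, coloured by housing group. Black bars give the group mean ± SD (n = 5). Desert means lie between 73.2 and 76.2% in all 15 mice and the groups overlap within each set.

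The desert mean passed the test in no housing comparison. The standard mice were at 74.6, 74.2, 73.6, 74.5 and 75.2%. The enriched mice were at 76.2, 73.2, 73.4, 74.8 and 75.3%, and the withdrawal mice at 75.2, 75.8, 74.1, 75.1 and 74.9%. The groups overlapped throughout, and the enriched group held both the highest and the lowest mouse. Group means were 74.4 ± 0.594, 74.6 ± 1.23 and 75.0 ± 0.600% (SD, n = 5).

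Enriched mice differed from standard mice by 0.150 points (two-sided exact permutation test, p = 0.794, adjusted over the 3 comparisons 0.794). Withdrawal mice were 0.611 points above standard mice (exact permutation p = 0.159, adjusted 0.476) and 0.461 points above enriched mice (exact permutation p = 0.468, adjusted 0.702). The smallest p that 5 against 5 mice allow is 0.00794. The excess of desert over in-gene methylation also did not separate the groups. It was 23.5 ± 0.242, 23.5 ± 0.133 and 23.5 ± 0.0884 points in standard, enriched and withdrawal mice, with between-group differences of 0.0492, 0.0410 and -0.00823 points for enriched against standard, withdrawal against standard and withdrawal against enriched (adjusted exact permutation p = 0.905 for each, n = 5).

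Methylation rose with distance from genes inside the deserts. Sites at 100 to 200 kb averaged 69.0% (5161 sites), at 200 to 300 kb 72.9%, at 300 to 500 kb 76.7% and at 500 to 1000 kb 82.5%. The 924 sites beyond 1000 kb averaged 89.0%. The share of sites under 20% was 16.1% in the nearest of these bins and 1.30% in the farthest. Sites beyond 500 kb exceeded sites at 100 to 200 kb by 15.6 points, from 14.7 to 16.4 points, in 15 of 15 mice (exact sign-flip permutation test, p = 6.1e-05).

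The level of desert sites also depended on the number of measured sites in their window. This number counts the 2 strands of a CpG pair separately and is not the CpG density of the genome. Desert sites alone in their window averaged 81.4%, and those in windows with 9 measured sites averaged 60.7%, where 32.1% of sites were under 20%. Within windows of 1 to 3 measured sites the far-minus-near difference was 10.3 points, from 9.68 to 11.3 (15 of 15 mice, exact sign-flip permutation test, p = 6.1e-05). That split was chosen after the gradient with distance had been seen. The 5 distance bins then averaged 74.9, 77.5, 80.2, 83.5 and 89.1%.

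**Figure D3:**
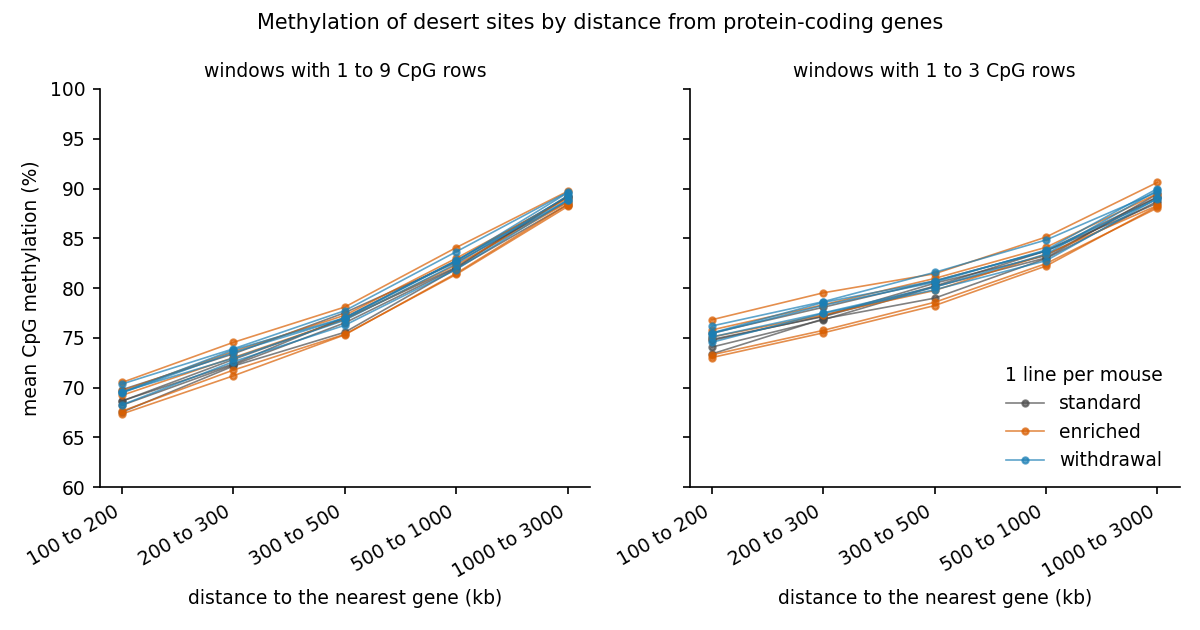
Mean methylation of desert sites per mouse (y axis, percent, starting at 60) in 5 bins of distance to the nearest protein-coding gene (x axis, kb), with 1 line per mouse. The left panel takes all desert windows and the right panel windows with 1 to 3 measured CpG sites. Every line climbs, from a mean of 69.0 to 89.0% on the left and of 74.9 to 89.1% on the right.

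Distance to genes of any kind was also examined. The 2301 complete desert sites inside a non-coding gene, pseudogene or other annotated gene averaged 68.2%, and the 313 sites within 1 kb of one averaged 63.8%, the lowest level. Sites at 1 to 10 kb averaged 71.9%, at 10 to 100 kb 74.9%, and the 2617 sites more than 100 kb from any annotated gene 82.8%. Chromosome means ranged from 67.6% on chromosome 11 to 81.1% on chromosome 14. The chromosomes richest in desert sites were at 76.7% (chromosome 3), 75.6% (1) and 72.9% (4), and chromosomes 17 and 19 at 77.6 and 74.8%.

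A gene-free stretch was taken as the interval between neighbouring protein-coding genes, and 477 stretches held at least 10 complete desert sites. Their means had a median of 79.1% and were as low as 6.97%, and 89 were over 90% against 50 under 50%. The widest stretch, 4542 kb between Pcdh20 and Pcdh9, genes of protocadherin cell-adhesion proteins on chromosome 14, averaged 90.9% over 80 sites. The 4511 kb between Celf4 and Pik3c3 on chromosome 18 averaged 77.7% over 66 sites. The 4420 kb between Olfm4 and Pcdh17 on chromosome 14 averaged 87.8%, and the 4278 kb between Cntnap5b and Cdh20 on chromosome 1 averaged 88.6%. The stretch between Tenm3, which encodes a teneurin of synaptic contacts, and Aga on chromosome 8 averaged 84.1% over 3989 kb. Within each of these stretches the group means lay within 1 point of each other, except between Cntnap5b and Cdh20, where they were 89.4 ± 0.780, 87.9 ± 1.18 and 88.5 ± 1.39%.

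The stretch with the lowest mean lay between Chd7, a chromatin remodeller gene, and Clvs1 on chromosome 4. It was 276 kb wide, and its 18 desert sites, more than 100 kb from both genes, lay only in its middle part. These sites averaged 7.16 ± 0.665% (standard), 6.83 ± 1.44% (enriched) and 6.93 ± 0.836% (withdrawal). In the next lowest, 265 kb between Tmem132e and Cct6b on chromosome 11, 12 such sites averaged 8.82%. The desert sites of both stretches were low in all 3 groups, and the rest of each stretch is not described by them.

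Low methylation was also examined by 1 kb window. Of the 1542 desert windows with at least 3 complete sites, 200 (13.0%) averaged under 20% and 977 (63.4%) over 80%. Low windows lay inside or within 1 kb of a gene of another kind in 68 cases (34.0%), high windows in 185 (18.9%). Their median distance to a protein-coding gene was 202 kb, against 268 kb for the high windows. The 5 lowest windows were close to 0 in nearly every mouse. At chr12:118457971-118457999, 157 kb from Sp4, a gene of a zinc-finger transcription factor, 13 of 15 mice were at 0 and the other 2 at 6.25 and 3.33%.

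The window at chr14:100459276-100459334, inside the lncRNA gene Gm34199 and 173 kb from the transcription factor gene Klf12, averaged 0, 1.03 ± 1.46 and 1.44 ± 1.23% in standard, enriched and withdrawal mice. The other 3, on chromosomes 15, 9 and 11, averaged at most 1.804% in any group. At the opposite end stood windows in which mice of 1 group disagreed. At chr19:14957930-14957954, 360 kb from the corepressor gene Tle4, standard mice were at 22.2, 3.10, 0, 26.7 and 100%. Enriched mice were at 72.2, 46.2, 37.5, 35.7 and 100% and withdrawal mice at 0, 22.2, 26.9, 33.7 and 66.5%. The window at chr15:27095412-27095474, 200 kb from Fbxl7, ran from 0 to 100% within the standard group, and that at chr3:54055020-54055047, 100.6 kb from the cation channel gene Trpc4, from 0 to 79.0% within the withdrawal group. These windows were picked for their spread within groups, and the ranges of the 3 groups overlapped in part.

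The spread of desert sites between mice depended on their level. The within-group SD averaged 9.56 points for sites under 20%, 16.7 points at 20 to 80%, 9.85 points at 80 to 95% and 3.98 points above 95%. Sites of the same level inside genes had 6.43, 17.4, 10.6 and 4.04 points. Dispersion was measured per mouse as the mean absolute difference of its sites from the average of the other 4 mice in its group. At levels of 20 to 80% it was 0.692 points lower at desert than at in-gene sites, and at 80 to 95% it was 0.682 points lower (15 of 15 mice in both, exact sign-flip permutation test, p = 6.1e-05). Under 20% it was 3.01 points higher at desert sites, at 9.13 ± 1.14 against 6.12 ± 0.644 points (SD, n = 15; 15 of 15 mice, exact sign-flip permutation test, p = 6.1e-05). In that class desert sites also had the higher mean level, 9.90% against 5.99%, and the part of this in the difference was not tested. Sites that hardly varied between mice were kept in all these classes. These comparisons were added after the levels had been seen. At 20 to 80% the desert deficit was smaller in enriched than in standard mice by 0.650 points, with no overlap between the groups (exact permutation p = 0.00794, adjusted p = 0.0238 over the 3 housing comparisons and 0.0714 over the 9 such comparisons). The value of each mouse was kept fixed in this test, although it depends on its group mates, so these p-values can be too small. As 0.00794 is the smallest p this design gives, 1 comparison alone could not pass 0.05 over all 9. The other 8 had adjusted p of at least 0.429 (exact permutation tests). The 9 took the whole set, 20 to 80% and 80 to 95%, and the class under 20% was not compared between groups.

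Withdrawal mice had the lowest dispersion at desert sites. Standard mice were at 9.997, 9.35, 8.72, 9.97 and 10.3 points, and enriched mice at 10.1, 9.88, 8.78, 9.57 and 10.4 points. Withdrawal mice were at 8.23, 7.85, 9.19, 6.97 and 8.61 points, and 4 of these 5 lay below every mouse of both other groups. Group means were 9.66 ± 0.624, 9.73 ± 0.613 and 8.17 ± 0.834 points (SD, n = 5).

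The withdrawal-minus-standard difference was -1.49 points and the withdrawal-minus-enriched difference -1.56 points. With dispersion computed again in each arrangement of the mice, the two-sided exact permutation p was 0.0397 and 0.0317, and 0.0595 for both after adjustment over the 3 comparisons, so neither passed 0.05. Leaving out withdrawal mouse 3 alone gave -1.84 and -1.92 points (exact permutation test, adjusted p = 0.0357 for each). Between enriched and standard mice the difference was 0.0742 points (exact permutation p = 0.857). In-gene sites moved the same way, at 10.3 ± 0.722, 10.2 ± 0.745 and 8.74 ± 0.977 points. With fixed values of the mice rearranged, the desert-minus-gene dispersion did not differ between groups (adjusted over the 9 comparisons, exact permutation p = 0.500, 0.857 and 0.510).

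The number of desert sites with a value moved with dispersion. It ran from 31984 in standard mouse 1 to 39495 in withdrawal mouse 4, with means of 34768 ± 1651 (standard), 34234 ± 1916 (enriched) and 36934 ± 1701 (withdrawal). The withdrawal excess was 2165 sites over standard and 2700 over enriched (exact permutation p = 0.0556 and adjusted 0.0833 for both). Without withdrawal mouse 3 the first was 2702 sites with an adjusted exact permutation p of 0.0238, in a range of 0.0238 to 0.202 over all alternatives.

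Over the 15 mice, dispersion fell with the number of sites (Pearson r = -0.838, permutation p = 5e-05 and 0.0002 after adjustment over the 4 relations computed; Spearman rho = -0.829, permutation p = 0.0002, adjusted 0.0008). Standard mouse 1 and enriched mouse 2 lay farthest from the median number, and leaving them out gave r = -0.883. After subtraction of the group means, r was -0.746 (permutation p = 0.00136, adjusted 0.00272) and rho -0.754 (permutation p = 0.00163, adjusted 0.00326). The dispersion of a mouse depends on its group mates. These permutation tests treated the 15 values as independent, so their p-values can be too small. After the linear dependence on the number of sites was removed, the withdrawal differences were -0.607 and -0.463 points (adjusted exact permutation p = 0.167 for both). The share of values at exactly 100% also moved, at 36.4 ± 3.54, 36.8 ± 4.87 and 30.5 ± 5.30% in standard, enriched and withdrawal mice, and its part in the dispersion was not tested. The desert mean showed no such relation (r = 0.189, permutation p = 0.502, adjusted 0.669; rho = 0.175, permutation p = 0.532, adjusted 0.709), and without the same 2 mice r was -0.0758.

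**Figure D4:**
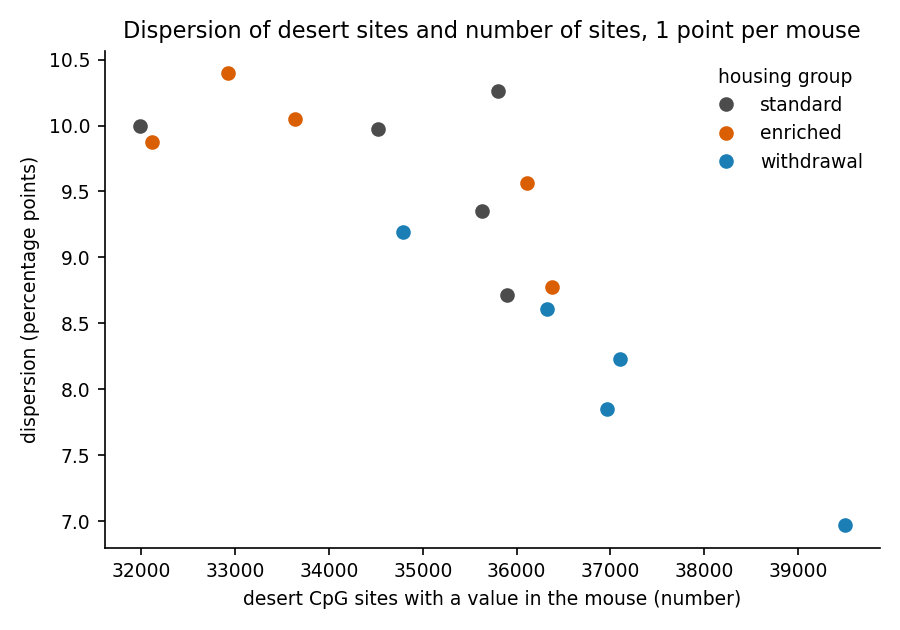
Dispersion of desert sites (y axis, percentage points) against the number of desert sites with a value (x axis) for each of the 15 mice, coloured by housing group. Dispersion falls as the number of sites rises (r = -0.838), and withdrawal mouse 4, with 39495 sites, has the lowest dispersion at 6.97 points.

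Intermediate values, from 20 to 80%, made up 24.7 ± 1.30% of desert sites in standard mice, 24.4 ± 1.06% in enriched mice and 23.8 ± 1.18% in withdrawal mice. The differences were -0.301, -0.908 and -0.608 points for enriched against standard, withdrawal against standard and withdrawal against enriched (exact permutation p = 0.706, 0.302 and 0.444). Across desert sites, pairs of mice of 1 group correlated at r = 0.830 to 0.917 (median 0.867) and pairs from different groups at 0.817 to 0.912 (median 0.866), which describes 13297 sites that share libraries.

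Both strands of a CpG pair give separate values in this table, and 1296 desert pairs of strands were taken for a comparison within a mouse. From 778 to 1261 of them had both values in a given mouse. The 2 strands differed by 12.1 to 16.9 points on average per mouse, and by a median of 7.21 to 9.76 points. On the plus strand of these pairs a mouse differed from its group mates by 11.7 to 14.4 points on average. The strand difference was the larger of the 2 averages in 15 of 15 mice. The noise in the 2 kinds of difference was not matched, so this order does not show that strands disagree more than mice.

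No single desert site passed the test for any housing comparison. Of the 13297 complete sites, 12889 had a range of at least 5 points over the mice and entered the limma fit, with p-values adjusted over all 100562 CpG sites tested. In each of the 3 comparisons 0 desert sites were called at an adjusted p under 0.05, and 0 of all sites (0.0%) were. The limma F test for any difference among the groups called 0 desert sites and 1 of all sites (0.000994%). At an unadjusted p under 0.05, 640 desert sites (4.97%) differed between enriched and standard mice, against 5.15% of all sites. Their directions were even, with 322 higher and 318 lower. Withdrawal against standard gave 561 (4.35%, background 4.42%), and withdrawal against enriched 554 (4.3%, background 4.3%). The F test gave 565 (4.38%, background 4.62%).

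Desert sites whose groups did not overlap numbered 64 for enriched against standard (0.497%, against 0.458% of all sites), 76 for withdrawal against standard (0.59%, against 0.532%) and 74 for withdrawal against enriched (0.574%, against 0.51%). The median absolute difference per desert site was 3.99, 3.63 and 3.61 points in the same order, against 3.76, 3.54 and 3.47 points over all sites. Averages over 1 kb windows were tested in the same way. Of 1542 desert windows 0 passed, as did 0 of the 15677 windows tested (0.0%), in each comparison. At an unadjusted limma p under 0.05 there were 97 (6.29%, background 5.71%), 60 (3.89%, background 4.8%) and 63 (4.09%, background 4.39%), and 74 for any difference among the groups (4.8%, background 5.08%).

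The sites with the smallest p-values are described with the nearest protein-coding gene as a landmark, each more than 100 kb away. For each comparison the first 2 in each direction are given, with limma log2 ratios of methylated to unmethylated percentage (5 points added to each) and their adjusted p over all CpG sites. The smallest was at chr13:87628999 on the plus strand, 1192 kb from Edil3, a gene of an extracellular matrix protein. Standard mice were at 100, 100, 100, 100 and 93.0%, and all 5 enriched mice at 100%. Withdrawal mice were at 89.2, 84.2, 88.6, 79.3 and 80.9%, below every other mouse. The log2 ratio was -2.25 ± 0.38 (SE) against enriched (limma adjusted p = 0.214) and -1.97 ± 0.38 against standard (limma adjusted p = 0.390). Without standard mouse 5 the latter had an adjusted p of 0.0190 in limma, and over all alternatives it ran from 0.0190 to 0.934.

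For enriched against standard, the site at chr5:47833658, plus strand, lay 148 kb from Slit2, which encodes a secreted axon guidance protein. Standard mice were at 16.2, 4.55, 38.6, 72.9 and 65.1%, enriched mice at 89.7, 95.8, 85.5, 100 and 100%, and withdrawal mice at 58.0, 70.4, 53.8, 59.7 and 74.3%. All enriched mice were above all others, and the standard mice were widely spread. The log2 ratio of enriched to standard was 4.21 ± 0.81 (SE, limma adjusted p = 0.347). The site at chr15:65033385, minus strand, 111 kb from Adcy8, a calcium-stimulated adenylyl cyclase gene, had group means of 67.5 ± 5.14% (standard), 94.9 ± 11.5% (enriched) and 80.5 ± 7.18% (withdrawal; limma adjusted p = 0.445). Without enriched mouse 3, at 74.3%, its limma adjusted p was 0.0116, in a range of 0.0116 to 0.886 over all alternatives.

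Lower in enriched than in standard mice was the site at chr18:88322423, plus strand, 543 kb from Socs6, a gene of the suppressors of cytokine signalling. Standard mice were at 100, 94.7, 100, 100 and 100% and enriched mice at 22.2, 40, 57.9, 87.2 and 87.1%, while withdrawal mice lay between 72.7 and 91.1%. The enriched mice were below all standard mice but covered a range of their own from 22.2 to 87.2% (log2 ratio -3.57 ± 0.70, limma adjusted p = 0.374). The site at chr1:190513362, plus strand, 260 kb from Rps6kc1, was at 96.7 ± 4.92, 57.3 ± 23.1 and 79.4 ± 11.5% (limma adjusted p = 0.440).

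For withdrawal against standard, the site at chr10:35521516, minus strand, 187 kb from Amd2, averaged 60.5 ± 10.8% (standard), 75.3 ± 18.8% (enriched) and 97.5 ± 4.73% (withdrawal; limma adjusted p = 0.620). The site at chr3:46217015, minus strand, 224 kb from Pabpc4l, averaged 61.6 ± 29.5, 99.1 ± 1.94 and 98.8 ± 2.17% (limma adjusted p = 0.656). At the latter, standard mice ran from 15.4 to 96.5% while enriched and withdrawal mice were all at or above 95%. Lower in withdrawal was chr14:25051330, minus strand, inside the lncRNA gene Gm41112, at 100% in every standard mouse, with group means of 92.4 ± 4.67% (enriched) and 85.7 ± 6.97% (withdrawal; limma adjusted p = 0.692).

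For withdrawal against enriched, 2 sites lay inside lncRNA genes and were near 0 in enriched mice. At chr9:41461801, minus strand, within Mir100hg, the host gene of a microRNA cluster, all 5 enriched mice were at 0. Withdrawal mice were at 31.0, 18.2, 44.0, 19.5 and 16.2%, and standard mice at 0, 21.3, 28.9, 20.7 and 0%. Enriched and withdrawal mice did not overlap, and standard mice spanned part of both (log2 ratio 2.97 ± 0.63, limma adjusted p = 0.666). At chr8:10752705, minus strand, within Gm39129 and 118 kb from the myosin gene Myo16, means were 27.8 ± 21.8% (standard), 1.18 ± 2.63% (enriched) and 34.1 ± 14.7% (withdrawal; limma adjusted p = 0.666). Lower in withdrawal was chr11:16142589, minus strand, 115 kb from Vstm2a, at 86.5 ± 4.77, 99.4 ± 1.40 and 79.9 ± 10.5% (limma adjusted p = 0.583).

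**Figure D5:**
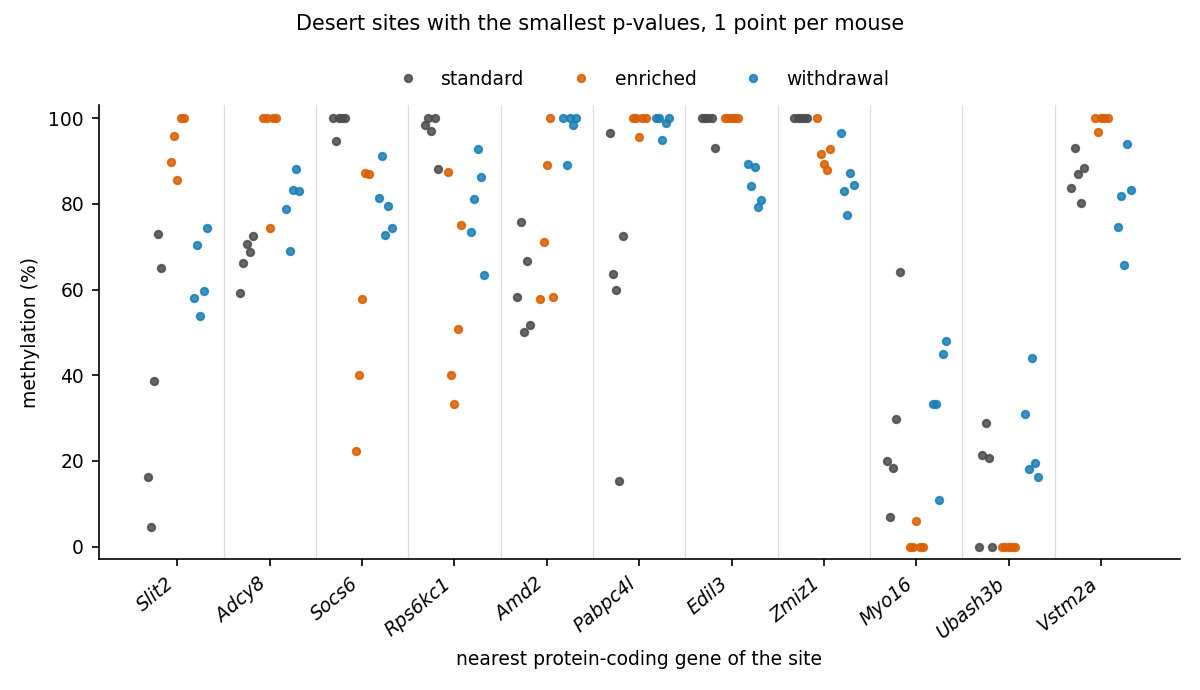
Methylation (y axis, percent) of 11 desert sites with the smallest limma p-values, named by their nearest protein-coding gene (x axis), with 1 point per mouse coloured by housing group. Many of the contrasts have 1 group piled at 100% or at 0%, as at the sites nearest Edil3 and Ubash3b, and none passed the adjusted threshold.

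Among windows, the smallest p-value for enriched against standard was at chr11:10371914-10371962, 687 kb from Abca13, with 3 sites. Standard mice were at 100, 90.1, 95.8, 98.7 and 98.2%, enriched mice at 86.5, 84.2, 87.9, 61.7 and 75.9% and withdrawal mice at 93.5, 96.2, 100, 94.9 and 86.9%. All enriched mice were below all standard mice (limma adjusted p = 0.629, and 0.964 for withdrawal against enriched). The window at chr3:130948770-130948790, 162 kb from Lef1, a gene of a Wnt-pathway transcription factor, averaged 93.3 ± 7.22, 73.0 ± 10.8 and 87.6 ± 4.90% (limma adjusted p = 0.648).

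For withdrawal against standard, the window at chr10:35521441-35521516 near Amd2, which holds the chromosome 10 site described above among its 5 sites, averaged 50.8 ± 16.6, 71.4 ± 14.4 and 82.6 ± 6.03% (limma adjusted p = 0.995). The window at chr2:98033717-98033786, 402 kb from Lrrc4c, which encodes a netrin-G ligand, averaged 99.8 ± 0.553, 95.6 ± 1.83 and 89.8 ± 8.56% (limma adjusted p = 0.995). For withdrawal against enriched, a window in the lncRNA gene Gm9866, chr12:27153544-27153612, 181 kb from Sox11, a transcription factor gene of immature neurons, averaged 84.2 ± 7.27, 81.3 ± 7.43 and 94.96 ± 2.26% (limma adjusted p = 0.964). The site farthest from any protein-coding gene, chr14:90771189 on the plus strand, was at 100% in all enriched and all withdrawal mice and at 94.1 ± 8.26% in standard mice.

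Measured methylation outside CpG pairs was low in the deserts. Cytosines that bisulfite left unconverted also read as methylated, and their share was not estimated here. Over autosomal non-CpG cytosines more than 100 kb from every protein-coding gene, complete in all mice and taken without a density limit, the mean was 1.22 ± 0.0373% (standard), 1.20 ± 0.0445% (enriched) and 1.21 ± 0.0287% (withdrawal). The differences of -0.0202, -0.00958 and 0.0106 points, in the order used above, were within the spread between mice (adjusted exact permutation p = 0.667 for each, n = 5).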

How the data were processed

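The deposited table gives percent methylation per cytosine and strand in each of 15 mice, with no coverage. The authors used Trim Galore 0.4.0, cutadapt 1.8.1, Bismark 0.16.1 and methylKit 1.5.2 with build mm10, per the submitters' processing notes; a coverage minimum is not given in the sources used here. The table runs through the chromosomes 2 times. The first run (455836 positions) was taken as CpG sites: of its 40643 positions in RefSeq promoter windows 100% were at CG, against 0% of 118360 positions of the second run. Distances came from 21883 protein-coding genes of RefSeq GRCm38.p6.

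Single sites and 1 kb windows (at least 3 complete sites) were tested with limma 3.58.1 in R 4.3.3 on log2((percent + 5)/(100 - percent + 5)), with a variance trend and 3 group means over all 15 mice. Benjamini-Hochberg adjustment ran over all CpG sites, or all windows, tested. A range of at least 5 points was required of single sites. Where each mouse gave 1 value, groups were compared with exact permutation tests (two-sided). Dispersion over a whole set used only sites with that range, and dispersion within level classes used all complete sites. Desert dispersion was computed again for each arrangement. Fixed values of the mice were rearranged for desert-minus-gene dispersion, with the dependence on site number removed, and with sites valued in at least 3 mice. Correlations used 100000 resamples. The limma and permutation scripts were tested on simulated data. The sites and windows named are, per comparison, the 2 higher and 2 lower sites and the 2 windows with the smallest limma p, the 5 lowest and 3 most variable windows, the 5 widest stretches and the farthest site. The members, lists and rules were chosen with earlier results of these data known. Replicate numbers did not pair the mice. Alternatives covered the distance, the density limit, missing values, the offset and scale, the filters and leaving out each mouse.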

Additional observations from a re-analysis of the deposited data

Results flagged for a closer look

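In groups of 5 mice, 1 mouse was set apart when its gap to the nearest of the others exceeded 0.71 of the group's range. This occurred in 19 of the 96 groups examined (19.8%), where chance gives about 1 in 20 and values piled at 0 or 100% give more. In the share of intermediate desert values, standard mouse 5 stood apart at 27.0%.

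At single sites the mouse set apart was mostly the lowest of a group whose other mice were at or near 100%. This was standard mouse 2 at chr18:88322423 (94.7%), standard mouse 5 at chr1:190513362 (88.2%), chr13:87628999 (93.0%) and chr14:90771189 (80%), enriched mouse 3 at chr15:65033385 (74.3%) and at chr3:46217015 (95.7%), enriched mouse 2 at chr11:16142589 (96.9%), and withdrawal mice 2 at chr10:35521516 (89.1%) and 3 at chr3:46217015 (95%). Enriched mouse 3 was the only mouse of its group above 0 at chr8:10752705 (5.88%).

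Among windows, standard mouse 4 was at 98.8% in the window near Lrrc4c on chromosome 2. In the window near Sp4 on chromosome 12, standard mouse 1 was at 6.25% and enriched mouse 5 at 3.33%. In the window inside the lncRNA gene Gm38563 on chromosome 15, standard mouse 5 was at 0.758%, enriched mouse 2 at 7.14% and withdrawal mouse 2 at 0.340%. Enriched mouse 3 was at 2.78% in the low window on chromosome 11, and standard mouse 5 at 100% in the variable window near Tle4 on chromosome 19.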

How the results depend on the processing

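Under alternatives, 369 of 372 values for the named sites and windows kept their direction and side of the threshold. Of the other results 303 values did, 22 changed direction, 11 newly passed a threshold and 7 were counts that changed. Direction turned for the mean methylation taken as a median over sites, at -0.140 points for withdrawal against standard and -0.457 against enriched. It turned for the intermediate share at 10 to 90%, at 0.704 and 1.19 points. It also turned for the enriched-minus-standard dispersion with sites valued in at least 3 mice (-0.0907 points) and with the line on site number removed (-0.143).

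The withdrawal dispersion passed the threshold for both comparisons with fixed values rearranged (-1.49 and -1.56 points, adjusted exact permutation p = 0.0238). It also passed with sites valued in at least 3 mice (-1.49 and -1.40, adjusted exact permutation p = 0.0238), where fixed values were rearranged as well. With dispersion computed again, it passed for both comparisons with genes of every kind (-1.38 and -1.41, adjusted exact permutation p = 0.0357). Against enriched mice it passed at over 200 kb (-1.54, 0.0476) and in windows with fewer than 5 sites (-1.61, 0.0476). The cause was not tested. Over all alternatives its adjusted p ran from 0.0238 to 0.188. Without the filter on range, 1 desert site was called for withdrawal against enriched (chr13:87628999, limma adjusted p = 0.0418, in a range of 0.0418 to 0.734 for this site).

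With each mouse left out, differences ran from -0.245 to 0.484 points for the enriched-minus-standard mean, from -0.640 to 0.265 for its intermediate share and from -0.204 to 0.416 for its dispersion. Withdrawal dispersion ran from -1.84 to -1.14 against standard and from -1.92 to -1.22 against enriched, and the withdrawal excess in sites with a value over standard from 1469 to 2702. The desert-minus-gene differences between groups ran from -0.00891 to 0.116 (enriched against standard), -0.0171 to 0.108 (withdrawal against standard) and -0.0576 to 0.0219 points. Desert sites called by limma ran from 0 to 2, 0 to 1 and 0 to 1. They were chr5:83714790 (without standard mouse 1), chr13:87628999 (standard mouse 5), chr15:65033385 and chr16:87140190 (enriched mouse 3) and chr2:101207331 (withdrawal mouse 3).

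Replicate numbers are shared by the groups, but deviations of same-numbered mice correlated at only -0.0257 to 0.0261. With the number as a replicate block, limma called 0 desert sites and 0 desert windows, and the mean differences of 0.150, 0.611 and 0.461 points had adjusted paired exact permutation p of 0.688, 0.375 and 0.688. For the dispersion differences of 0.0742, -1.49 and -1.56 points these were 0.625, 0.188 and 0.188. Without coverage, values resting on few reads could not be told from deep ones.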
